A study of Mus musculus with 1507 samples.

Results

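Small nucleolar RNAs (snoRNAs) are short RNAs without a poly(A) tail, and 1508 of the 47643 genes in the study's merged gene models carry the gene type snoRNA. All 1508 were taken. By symbol, 83 of them are C/D box snoRNAs (Snord), 40 are H/ACA box snoRNAs (Snora) and 2 are small Cajal body RNAs (Scarna). The other 1383 have names that give no class, 1359 of them Gm symbols and 10 the Rnu3 annotations of U3.

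C/D snoRNAs form a particle with fibrillarin, Nop56 and Nop58 that methylates the 2′-hydroxyl of ribose, and H/ACA snoRNAs form one with dyskerin (Dkc1), Nhp2, Nop10 and Gar1 that converts uridine to pseudouridine. Their targets are mainly ribosomal RNA, while scaRNAs guide the same reactions on spliceosomal RNAs in Cajal bodies. A few act in the cleavage of precursor rRNA instead: U3 (Rnu3), U8 (Snord118), U13 (Snord13), U14 (Snord14), U22 (Snord22) and the U17 pair (Snora73a and Snora73b). Most mammalian snoRNAs are cut from introns of host genes, many of which encode ribosomal proteins, so a snoRNA and its host share a precursor.

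All samples came from mouse 5G6GR embryonic stem (ES) cells, which were kept without feeder cells and carry a fusion of Gata6 to the glucocorticoid receptor in every group, so that dexamethasone turns them into primitive endoderm (PrE). Purified ES RNA was sequenced as rRNA-depleted RNA from 1 µg (rdRNA-seq, 3 libraries), 10 ng (3) and 1 ng (3), as poly(A)-selected RNA from 1 µg (paRNA-seq, 3), by RamDA-seq from 1 ng (3) and 10 pg (3), by C1-RamDA-seq from 10 pg (4), called C1-RamDA here, and from 10 pg by SMART-Seq v4 (4), called SMART. RamDA-seq (RamDA) copies RNA with oligo-dT and not-so-random hexamers and amplifies the cDNA by nicking and strand displacement, C1-RamDA does the same on a microfluidic chip, and SMART primes with oligo-dT only. Single cells were untreated ES cells sorted in G1 (93), S (91) and G2/M (93), cells at 0 (92), 12 (91), 24 (93), 48 (87) and 72 h (93) of dexamethasone, untreated ES and 72 h PrE cells mixed on 4 plates (E1, E2, B1 and B2, the plates of 2 experimenters), and 16 ES and 39 PrE cells captured on a C1 chip. Nothing in the labels says that libraries of a group came from separate cultures, so p-values measure the spread between these libraries or plates, which may be technical.

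Gene levels are estimated counts in the RNA libraries, of which a library held 5706348 to 8962910 in all, and TPM, transcript counts scaled for length and to a fixed total, in the cells, whose depth is not given with the TPM values. The 1 µg and 10 pg libraries had been reduced to equal read numbers by the authors. For rdRNA-seq of 1 µg, RNA was depleted with a GeneRead kit, made into libraries with an NEB kit and sequenced in paired reads. The rdRNA-seq libraries of 10 and 1 ng came from a KAPA RiboErase kit and single reads. Between 1 µg and these lower inputs, the effects of input, kit and sequencing therefore cannot be told apart. Of the 384 wells on the 4 mixed plates, 22 held fewer than 2000 detected genes, so plate results are for all wells unless stated, with the main counts also without the 22. On the plates, all 5 ES markers fell in PrE cells (Pou5f1 by 2.48 on the log2 scale), and 6 of 7 endoderm markers rose, Gata4 by 7.18 ± 0.10 (SE). Gata6, which the fusion also supplies, was at 0.76 ± 0.41 (adjusted p = 0.145) and at 1.52 ± 0.07 without the 22 wells. Of 4 fibroblast markers, Col1a1 and Col1a2 did not reach a mean of 1 TPM, Thy1 fell by 1.17 and Twist1 rose by 1.61.

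In the gene models, 633 of the 1508 snoRNA genes lie inside another gene on the same strand, 344 of them in a protein-coding host. A total of 479 lie wholly within introns, and 186 overlap an exon of another transcript on their strand, often a retained intron (84 genes) or another snoRNA annotation (48 genes). Reads were counted without regard to strand, so a mature snoRNA, an unspliced host transcript and an antisense transcript over the same bases cannot be told apart. The largest host groups were Snhg14 in the imprinted region of chromosome 7 (208 genes), Rian (12) and Gas5 (10). Length ranged from 35 to 325 bases with a median of 127. The median was 79 bases for C/D and 132 for H/ACA names, and 118 genes (7.82%), 35 of them C/D, were shorter than 76 bases, the single read of RamDA-seq.

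Whole sequences were shared by 183 genes, which reads cannot separate, so the 1508 genes have 1365 distinct sequences. A C box (ATGATGA or GTGATGA within the leading 20 bases) together with a D box (CTGA within the last 20) stood in 61.4% of the C/D names and 20.1% of all members, against 0.111% of 4509 other small RNA genes in the same range of lengths. The letters ACA within the last 8 bases, as at the tail of H/ACA RNAs, stood in 95.0% of the H/ACA names and 46.8% of all members, against 11.6% of the other small RNA genes. Neither pattern was found in 510 members (33.8%). These searches read the RNA strand only, and a match is a description of the letters, not of a site.

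The sequences printed here are those on which the results turn, with the D box, C box or ACA in capitals where present. They are GENCODE vM21 transcripts on GRCm38 (mm10), 5′ to 3′ on the RNA strand, with lengths equal to those in the study's models. Rnu3b1 (chr11:87443237-87443452, plus strand, inside Tex14) is U3, which took most snoRNA counts of rdRNA-seq from 1 µg. Snora73a (chr4:132352775-132352979, minus strand, over an exon of an Rcc1 transcript) and Snora73b (chr4:132352322-132352526, minus strand, Rcc1 intron) are the U17 pair, which share 198 of 205 bases (96.6%). Snora81 (chr16:23110756-23110933, plus strand, over an exon of an Eif4a2 transcript) was the highest snoRNA in cells and holds neither box pattern. Snord17 (chr2:144265979-144266216, minus strand, Snx5 intron) has the most counts of the C/D names in rdRNA-seq of 1 µg and, at 238 bases, is also the longest of them. Gm24451 (chr2:130276237-130276369, plus strand, over an exon of a Nop56 transcript) and Gm26397 (chr8:126944847-126944980, minus strand, Tomm20 intron) have no class name but end in ACA.
Rnu3b1: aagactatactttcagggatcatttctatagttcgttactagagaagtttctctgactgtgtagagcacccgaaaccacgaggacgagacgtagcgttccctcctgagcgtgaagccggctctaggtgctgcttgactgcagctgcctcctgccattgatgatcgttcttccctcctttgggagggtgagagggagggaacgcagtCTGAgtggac
Snora73a: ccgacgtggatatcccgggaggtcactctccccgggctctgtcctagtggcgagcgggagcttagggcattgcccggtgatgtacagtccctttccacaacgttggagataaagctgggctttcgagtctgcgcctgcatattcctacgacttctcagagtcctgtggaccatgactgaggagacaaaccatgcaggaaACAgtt
Snora73b: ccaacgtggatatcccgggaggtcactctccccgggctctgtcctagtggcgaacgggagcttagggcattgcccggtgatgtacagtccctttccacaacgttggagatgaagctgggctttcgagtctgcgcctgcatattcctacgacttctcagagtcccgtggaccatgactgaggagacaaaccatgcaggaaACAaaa
Snora81: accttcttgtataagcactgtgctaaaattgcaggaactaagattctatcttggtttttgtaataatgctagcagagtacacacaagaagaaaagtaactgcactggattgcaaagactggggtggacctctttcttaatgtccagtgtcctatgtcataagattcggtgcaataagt
Snord17: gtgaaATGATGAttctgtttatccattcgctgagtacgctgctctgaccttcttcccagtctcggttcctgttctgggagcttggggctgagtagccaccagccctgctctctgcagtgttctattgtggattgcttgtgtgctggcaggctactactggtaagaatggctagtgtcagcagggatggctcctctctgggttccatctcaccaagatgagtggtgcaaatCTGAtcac
Gm24451: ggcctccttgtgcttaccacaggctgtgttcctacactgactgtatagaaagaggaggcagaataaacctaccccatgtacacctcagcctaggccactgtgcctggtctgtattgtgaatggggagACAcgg
Gm26397: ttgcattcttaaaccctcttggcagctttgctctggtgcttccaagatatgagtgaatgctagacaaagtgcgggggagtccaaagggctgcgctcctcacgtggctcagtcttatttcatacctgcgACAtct

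In bulk RNA, snoRNAs were far higher after rRNA depletion than after poly(A) selection. They made up 1.08 to 1.88% of the counts of the 3 rdRNA-seq libraries of 1 µg and 0.00681 to 0.00739% of those of paRNA-seq, and the groups did not overlap. U3 carried 71.9 to 78.3% of the snoRNA counts in rdRNA-seq, 57769 to 108790 counts a library, and 10 to 28 counts a library in paRNA-seq. Without U3, the snoRNA genes summed to 3582 ± 531 CPM (counts scaled by the library total, SD, n = 3) in rdRNA-seq and 69.2 ± 2.07 (n = 3) in paRNA-seq. At least 10 counts were reached by 133 ± 3.61 snoRNA genes a library in rdRNA-seq and by 12.3 ± 2.08 in paRNA-seq. Counts of H/ACA names were 3.66 ± 0.218 times those of C/D names in rdRNA-seq and 1.15 ± 0.0558 times in paRNA-seq. These counts are not scaled for length, and how well the RNeasy Mini Kit extraction kept short RNAs was not tested.

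All 10 Rnu3 annotations cover 5 loci, each annotated at a pair of lengths, and the 4 Rnu3b loci have identical sequences over which the quantifier spread its reads evenly. Each 216-base Rnu3b copy therefore had the same estimate, 18230, 24620 and 12826 counts in the 3 rdRNA-seq libraries of 1 µg, and 1 read total stands behind all of them. The longer and shorter annotations of a locus also split reads between them differently from library to library, so U3 is better read as the sum over its annotations. Snora73a followed with 6566, 7642 and 4907 counts, against 4.26, 28.6 and 30.4 in paRNA-seq. Its near-copy Snora73b had 3094, 2893 and 2488 against 40.6, 28.8 and 48.4. Both members of the U17 pair were thus far above paRNA-seq in every library. Snord17 had 1358, 1438 and 1002 counts against 5, 4 and 2, and Snora81 705, 877 and 424 against 0, 1.33 and 0.

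The less abundant rRNA processing RNAs were also counted in bulk. U8 (Snord118) had 54, 104 and 27 counts in rdRNA-seq and 0 in each paRNA-seq library, at least 24.7-fold higher with 3 counts a library taken as the floor. U13 (Snord13) had 112, 127 and 52 against 1, 0 and 1, and U22 (Snord22, in Snhg1) 685, 607 and 526 against 17, 14 and 16.7. Scarna10, a scaRNA over an exon of Ncapd2, had 33.3, 82.5 and 32.2 counts against 0 throughout, at least 19.8-fold higher. Of the imprinted C/D list (Snord64, Snord107 and 2 Snord116l copies), no member reached 1 count in a bulk library, and all 208 genes within Snhg14 stayed under 1 count in each of the 26 libraries. In all, 952 of the 1508 genes stayed under 1 count in every library.

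By edgeR's quasi-likelihood test with Benjamini-Hochberg adjustment over all genes, all 119 snoRNA genes that passed the filter on low counts were higher in rdRNA-seq than in paRNA-seq. Of all genes tested, 23.8% were called higher and 26% lower. A gene near 0 in paRNA-seq could pass that filter only through rdRNA-seq, so this count supports nothing by itself. A high lower bound was the 399-fold of Gm26447 in Eif4a2, with 996, 855 and 1137 counts in rdRNA-seq and 0 in each paRNA-seq library. At the other end, Snord104 averaged 19.7 counts against 15.7, a log2 fold change of 0.90 ± 0.27 (SE, adjusted p = 0.0158). Snora65 in Rpl12 had 39, 33.3 and 21.5 counts against 9.24, 11.4 and 9.07, a log2 fold change of 2.25 ± 0.32 (adjusted p = 0.000135).

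**Figure D1:**
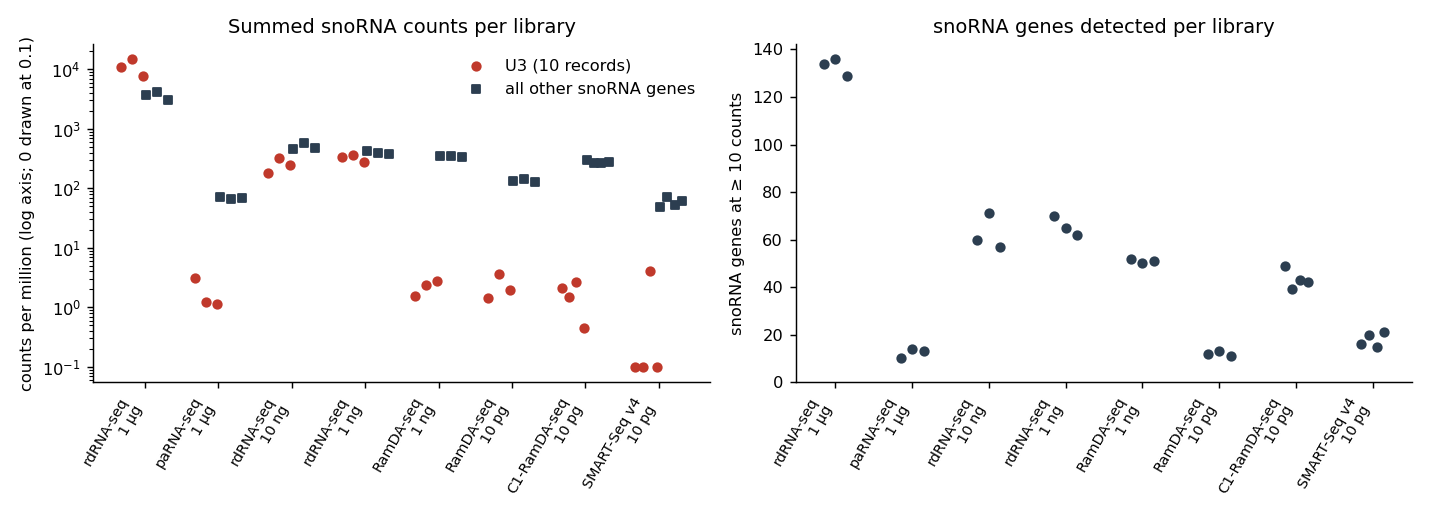
Left, CPM of U3 and of all other snoRNA genes in each RNA library on a log axis, with 0 drawn at 0.1. Right, the number of snoRNA genes with at least 10 estimated counts in each library. The rRNA-depleted libraries of 1 µg were made with other kits than those of 10 and 1 ng. U3 is above all other snoRNA genes together in the 3 rRNA-depleted libraries of 1 µg, below them in those of 10 and 1 ng, and far below them in RamDA, C1-RamDA and SMART, where the other snoRNAs remain at 58.2 to 347 CPM on average.

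At 1 ng, where RamDA and rdRNA-seq had the same input, the U3 and U17 RNAs were lower in RamDA while Snora81 and several Gm genes were higher. Without U3, the snoRNA sum was 347 ± 7.34 CPM in RamDA and 398 ± 18.9 in rdRNA-seq (n = 3 each), and 51.0 ± 1.00 against 65.7 ± 4.04 genes a library reached 10 counts. U3 took 0.448 to 0.806% of the snoRNA counts in RamDA and 41.7 to 47.8% in rdRNA-seq. Over all its annotations, U3 had 2352, 2515 and 1922 counts in rdRNA-seq and 9, 14 and 16 in RamDA. The 216-base Rnu3b annotations, tested singly, had a log2 fold change of -8.49 ± 0.33 (adjusted p = 2.43e-12), which leaves out reads given to the 215-base ones. The stretch printed above for Rnu3b1 holds 10.9 matches to the 408 mouse hexamers per 100 positions, against a median of 9.46 over all snoRNA genes.

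The near-identical U17 pair had falls of unequal size. Snora73a had 453, 517 and 333 counts in rdRNA-seq and 71.8, 64.9 and 68.6 in RamDA, a fall of 2.50 ± 0.17 on the log2 scale (adjusted p = 5.16e-09). Snora73b had 186, 178 and 163 against 127, 114 and 117, a fall of 0.39 ± 0.14 (adjusted p = 0.0372). DESeq2 did not call Snora73b, nor did library size scaling (-0.28) or the fits without RamDA replicate 2 (-0.35) or 3 (-0.37) or without rdRNA-seq replicate 1 (-0.36) or 2 (-0.37). Neither pair of groups overlapped, and the fall of Snora73a was several times that of Snora73b, a difference that was not itself tested. With 198 shared bases, part of their reads may have been assigned between them by the quantifier's model.

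Snora81 ran the other way. It was listed at 0 in all 6 libraries of rdRNA-seq from 1 and 10 ng and had 190, 201 and 206 counts in RamDA of 1 ng, at least 80.4-fold higher. Its host Eif4a2, a translation initiation factor gene, was at 585 to 669 CPM in rdRNA-seq of 1 ng and 443 to 474 CPM in RamDA, a fall of 0.57 ± 0.06 on the log2 scale (adjusted p = 7.67e-07). Gm26447, from the same host, was counted in these libraries of rdRNA-seq (10.5, 2.42 and 18.6) and was 1.57 ± 0.55 higher on the log2 scale in RamDA (adjusted p = 0.0332), a call lost without RamDA replicate 1 or 3 (1.45 each) or rdRNA-seq replicate 1 (1.54) or 2 (1.09). Snora65 was likewise at 0 in the rdRNA-seq libraries and at least 8.91-fold higher in RamDA. Gm24451 rose by 2.82 ± 0.43, Gm26397 by 2.78 ± 0.59 and Scarna10 by 1.60 ± 0.39 on the log2 scale, each with an adjusted p under the threshold of 0.05.

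Over the 63 snoRNA genes tested at 1 ng, 15 were higher and 25 lower in RamDA, against 18.2% and 19.8% of all genes. Their median log2 fold change was -0.58 and that of all genes tested 0.01. The snoRNA median stayed at -0.61 to -0.55 without any RamDA library. It was 0.02, -0.15 and 0.24 without rdRNA-seq replicate 1, 2 or 3 and 0.13 with no filter, fits that took in more genes. The direction of the median was thus not stable. Genes at 0 in a method, such as Snora81, Snora65 and Snora16a, passed the filter only through the other method, which fixed their direction. All 8 tested members of the rRNA processing list were lower, 5 of them U3 annotations that share reads, of H/ACA names 3 of 15 were higher and 8 lower, and of C/D names 2 of 15 were higher and 6 lower. Among those lower were Snora16a (at least 8.06-fold), Snora78 by 5.95 ± 0.56, Snora57 by 4.09 ± 0.46 and Snord34 by 3.46 ± 0.33 on the log2 scale. Across 83 genes with a mean of at least 10 counts in either method, the log2 ratio of RamDA to rdRNA-seq had a Spearman's rho of -0.13 with hexamer matches per 100 positions and -0.25 with length. These genes share libraries and are not independent.

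Within rdRNA-seq, 1 ng against 10 ng gave no called snoRNA gene among the 63 tested by edgeR, 13 at an unadjusted p under 0.05, and 1 by DESeq2. Over all genes, 0.144% were called lower and none higher. Snora73a had 552, 1072 and 812 counts at 10 ng against 453, 517 and 333 at 1 ng, a fall of 0.92 ± 0.21 on the log2 scale with an adjusted p of 0.247. Scarna10 had 41.4, 51.8 and 42.3 counts at 10 ng and 10.6, 25.6 and 12.3 at 1 ng (adjusted p = 0.368), and these values did not overlap.

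At 10 pg, about the RNA of a cell, RamDA and C1-RamDA held snoRNA genes that SMART did not list. Their sum without U3 was 133 ± 7.57 CPM in RamDA (SD, n = 3), 275 ± 18.6 in C1-RamDA (n = 4) and 58.2 ± 10.6 in SMART (n = 4), and the ranges did not overlap. The number of genes with at least 10 counts did not follow that order, with 12.0 ± 1.00, 43.3 ± 4.19 and 18 ± 2.94. At a minimum of 5 counts it was 40.3, 81.3 and 31.3. Of the 130 genes with a mean of at least 10 counts in bulk rdRNA-seq, 78 had a mean of at least 1 count in RamDA, 99 in C1-RamDA and 62 in SMART.

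Scarna10 had 61, 48 and 56 counts in RamDA, 26.3, 23.4, 38 and 12 in C1-RamDA and 0 in all 4 SMART libraries. It was at least 28.1-fold higher in RamDA and at least 10.9-fold higher in C1-RamDA than in SMART. Gm26397 had 34, 25 and 24 counts, 92, 110, 94 and 115, and 0 throughout, bounds of 14.1-fold and 44.8-fold. Its host Tomm20, a subunit of the mitochondrial import receptor, was at 151 to 197 CPM in RamDA and 180 to 266 CPM in SMART. The edgeR log2 fold change of Tomm20 was 0.31 ± 0.20 (adjusted p = 0.398). That value is scaled by TMM, while CPM and the bounds above are scaled by library total. SMART thus listed the snoRNA at 0 while its host mRNA was counted.

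SMART gave some snoRNAs in only part of its libraries. Snora81 was at 8.25, 49.8, 0 and 0 counts there, at 13.7, 40.8 and 74.8 in RamDA and at 333, 303, 284 and 213 in C1-RamDA. Snora73b was at 0, 105, 36.3 and 23.9 in SMART, at 84.5, 91.1 and 42.6 in RamDA and at 167, 149, 95 and 115 in C1-RamDA. For both genes the RamDA and SMART values overlapped, and neither comparison passed the test (adjusted p of 0.457 and 0.512). U13 was an RNA that SMART listed at 2, 13, 0 and 10 counts and RamDA at 0, 0 and 1. U3 was low in all methods at this input, at 0 in 3 of 4 SMART libraries, 35 counts in the other, and 3 to 21 counts in the RamDA and C1-RamDA libraries.

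In the tests, 4 of 17 snoRNA genes were higher and 0 lower in RamDA than in SMART (7.43% and 6.62% of all genes), namely Scarna10, Gm26397, Gm24119 (at least 7.83-fold) and the H/ACA RNA Snora17 (at least 4.43-fold). DESeq2 and library size scaling each called 4 higher and 1 lower. Gm25636 in Ipo7 averaged 0.33 counts in RamDA and 20 in SMART, a log2 fold change of -4.37 ± 1.26 (adjusted p = 0.0617). Leaving out any of the 3 RamDA libraries left 0 calls, and leaving out a SMART library left 3 or 4. C1-RamDA had 10 of 34 higher and 0 lower (10.9% and 8.97% of all genes), among them Snora23 (at least 11.5-fold), AF357399 (at least 11.2-fold) and Snord35a (at least 5.35-fold), with 18 calls without the library SMART replicate 2 and 16 without replicate 4. A gene at 0 in SMART passed the filter only through the other method. Between the RamDA versions, 0 of 37 were higher and 4 lower in RamDA (6.01% and 5.56% of all genes): Gm25663 at least 8.41-fold, and Snora64 by 4.54 ± 1.21, AF357399 by 3.33 ± 0.87 and Snora81 by 2.17 ± 0.51 on the log2 scale. Leaving out each of the 7 libraries in turn left 1 or 2 calls. The 3 comparisons share libraries. On library size alone, the median log2 fold change of all genes moved by -0.66 for RamDA over SMART, -0.37 for C1-RamDA over SMART and -0.31 for RamDA over C1-RamDA, and the share of calls that were higher went from 52.9 to 29.1%, 54.9 to 40.1% and 51.9 to 20.8%.

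**Figure D2:**
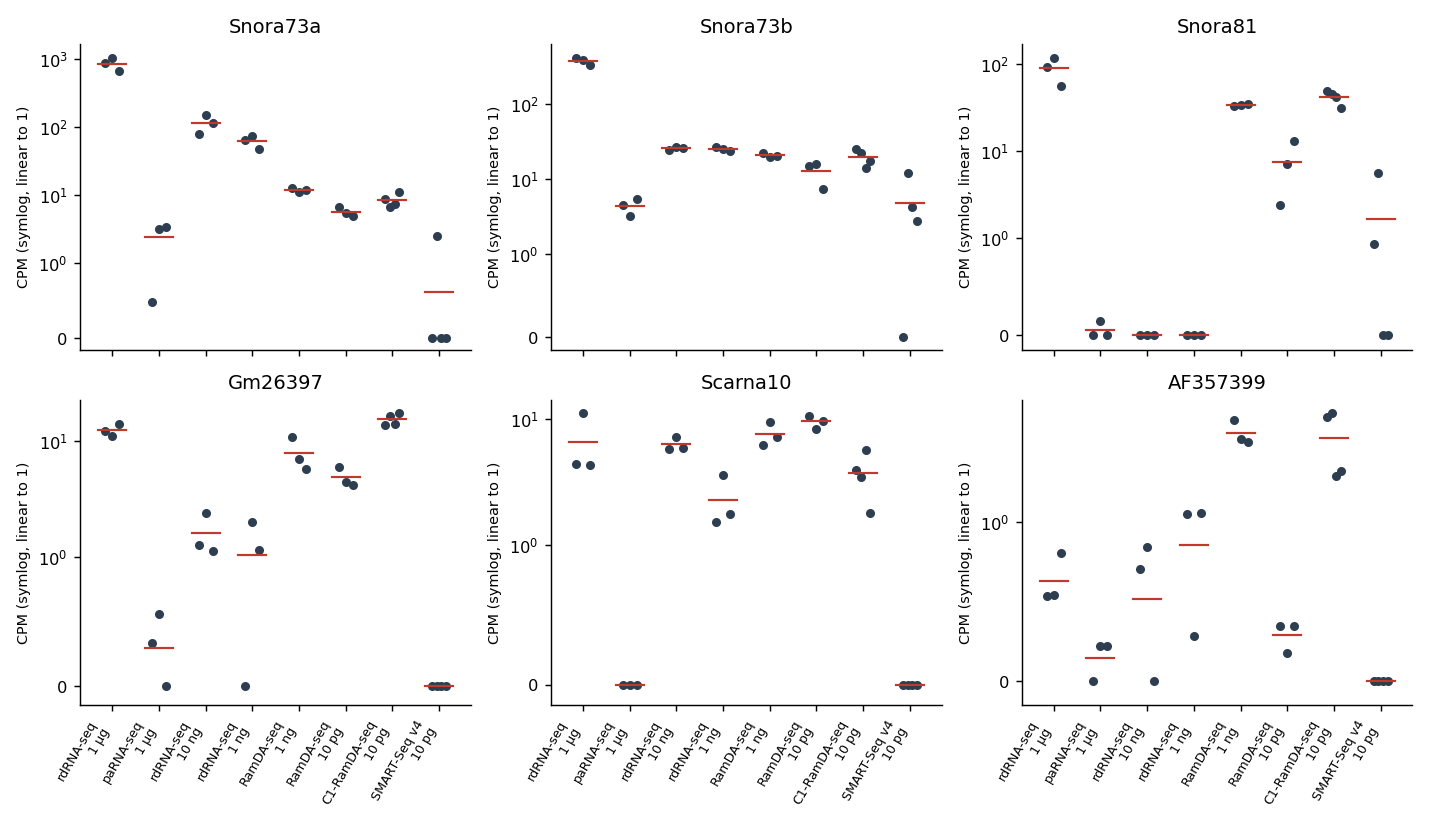
CPM of Snora73a, Snora73b, Snora81, Gm26397, Scarna10 and AF357399 in each library of 8 groups, on an axis that is linear to 1 and logarithmic above, with a red line at each group's mean. Snora81 is at 0 in the rRNA-depleted libraries of 1 and 10 ng, and Gm26397 and Scarna10 are at 0 in the 4 SMART libraries.

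The same 10 pg input filled 96 wells of a RamDA plate, 95 of a C1-RamDA chip and 94 of a C1-SMART chip. Totals a well were 645120 to 687849 counts in RamDA, 677264 to 722762 in C1-RamDA and 939496 to 956848 in C1-SMART. The C1-SMART wells were thus the deepest, and detection was not adjusted for depth. A well held 77.8 ± 7.01, 84.4 ± 7.0 and 41.4 ± 5.40 snoRNA genes with at least 1 count (SD over wells), and summed to 292 ± 25.9, 340 ± 25.4 and 136 ± 16.9 CPM. Each method is 1 plate or chip, so plate and method cannot be told apart and no test was run. Snora81 was counted in 96 of 96, 95 of 95 and 34 of 94 wells, the latter 36.2% with an exact 95% binomial interval of 26.5 to 46.7%. Gm26397 was counted in 99% of RamDA, 100% of C1-RamDA and 4.26% (1.17 to 10.5%) of C1-SMART wells. Scarna10 reached 56.3%, 61.1% and 0 of 94 wells, and 0 of 94 allows a share of up to 3.85%. Among named genes, U13 and Snora26 were counted in more C1-SMART wells, U13 in 34.4% of RamDA, 25.3% of C1-RamDA and 59.6% of C1-SMART wells, and Snora26 in 45.8%, 49.5% and 73.4%. Intervals cover counting error only.

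Genes that were lower in the 3 RamDA libraries than in the 4 C1-RamDA libraries stood closer on these full plates. Gm25663 was at 3.46 ± 3.10 CPM on the RamDA plate and 3.70 ± 2.28 on the C1-RamDA chip, and AF357399 at 2.26 ± 1.78 and 2.37 ± 2.53. Snora81 was at 36.2 ± 11.1 and 54.6 ± 12.8 CPM.

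In single cells the levels of most snoRNAs, as of most genes, varied more between G1 cells than between wells of a shared lysate. The lysate of 180 pooled G1 cells was split over wells, and its 9 wells summed to 5403 ± 685 snoRNA TPM, against 5434 ± 1422 in 93 G1 cells. Over 115 snoRNA genes with a mean of at least 10 TPM, the median coefficient of variation (CV) was 0.74 in lysate wells and 1.00 in cells, and it was higher in cells for 96 of them (83.5%). For all 6390 genes at that level the medians were 0.30 and 0.42 and the share was 84.6%. Snora81 was at 175 ± 38.2 TPM in the wells (CV 0.219) and 174 ± 141 in the cells (CV 0.807), where it ranged from 0 to 692. Snora73b was at 156 ± 32.7 TPM (CV 0.209) and 170 ± 72.4 (CV 0.426), and Gm26397 at 129 ± 56.1 (CV 0.435) and 131 ± 44.6 (CV 0.341). Purified RNA of 10 pg in 9 wells of the same plate summed to 2318 ± 270 TPM, under the lowest lysate well (4531), while Scarna10 was at 42.8 ± 17.7 TPM there and 35.9 ± 10.5 in the lysate wells.

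TPM weights a count by length, and in RamDA of 1 ng, where both units are given, 1 count was worth a median of 5.50 TPM for snoRNAs shorter than 76 bases and 2.24 for those of 150 bases or more. Through the cell cycle the snoRNA sum was 5434 ± 1422 TPM in G1, 6310 ± 1411 in S and 5857 ± 1474 in G2/M. Each phase is 1 sort, so its cells are no replicates. Over 150 genes the median log2 difference of S from G1 was 0.22, and that of 7487 genes in all was 0.15. AF357399 went from 28.8 TPM in G1 to 61.8 in S and 42.6 in G2/M, while Snora73b stayed at 170, 177 and 179 TPM and Scarna10 at 46.3, 42.9 and 45.7.

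During differentiation the snoRNA sum per cell was level to 24 h and lower after it. It was 4874 ± 1452 TPM (SD over 92 cells) at 0 h, 5060 ± 1729 (91) at 12 h, 5559 ± 1454 (93) at 24 h, 3228 ± 1132 (87) at 48 h and 2780.5 ± 665 (93) at 72 h. From 0 to 72 h, H/ACA names went from 944 to 467 TPM and C/D names from 973 to 545, while scaRNA names stood at 29.4 and 27.8. The genes detected at 0.1 TPM or more numbered 175 at 0 h and 138 at 72 h. In the 90 and 91 cells of 0 and 72 h quantified on the merged gene models, the sums were lower, at 3378 and 2096 TPM. Each time is 1 sample of many cells, so the times were not tested, and TPM being a share, less snoRNA and more of other RNA cannot be told apart.

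Of 395 snoRNA genes detected in at least 10% of cells at 0 or 72 h, 93 (23.5%) were lower at 72 h by at least 1 and 22 (5.57%) higher by at least 1 on the log2(mean TPM + 1) scale, with a median of -0.37. Over all 26275 genes these shares were 8.34% and 8.74% and the median was -0.02. The highest snoRNA, Snora81, was at 209, 188, 222, 112 and 89.2 TPM at the 5 times, and Snora73b at 126, 123, 121, 74.0 and 57.2. Scarna10 (27.6 TPM at 0 h, 26 at 72 h) and U13 (10.0 and 9.90) stood near their starting level. Gm24299, Gm24357 and Gm22620 lie together at chr9:15314074-15315595 on the plus strand, in no gene of that strand, and went from 126 to 40.5, 125 to 41.2 and 85.6 to 34.7 TPM.

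The largest decreases over time differed in timing. Gm23823, in no host gene, was at 14 TPM and in 73.9% of cells at 0 h (exact 95% interval 63.7 to 82.5%), and already at 0.62 TPM and in 18.7% of cells (11.3 to 28.2%) at 12 h, where it stayed. Gm23772, also without a host, went from 13.4 to 1.90 TPM over the same 12 h. Snora26, an H/ACA RNA of the lncRNA gene Dancr, instead stood at 19.1, 23.6 and 20.4 TPM to 24 h and at 3.97 and 1.93 TPM at 48 and 72 h. Dancr itself was at 21.6, 18.2 and 4.64 TPM at 0, 24 and 72 h. The 0 h levels of Gm23823 and Gm23772 were above those in other untreated ES cells. In cells sorted in G1 and S, Gm23823 was at 5.85 and 2.25 TPM and Gm23772 at 5.55 and 8.12 TPM. From ES to PrE cells on the mixed plates, they fell by 0.92 and 2.73 on the log2 scale. Among genes that were higher at 72 h, Gm25185 went from 2.39 TPM (16.3% of cells) to 20.2 (66.7%), Gm25183 from 1.98 to 11 TPM, and Gm25569 from 0.09 TPM (1.09% of cells) to 3.14 (22.6%). None of these 3 lies in a host gene, and Gm25183 stood at 5.80 TPM by 12 h.

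**Figure D3:**
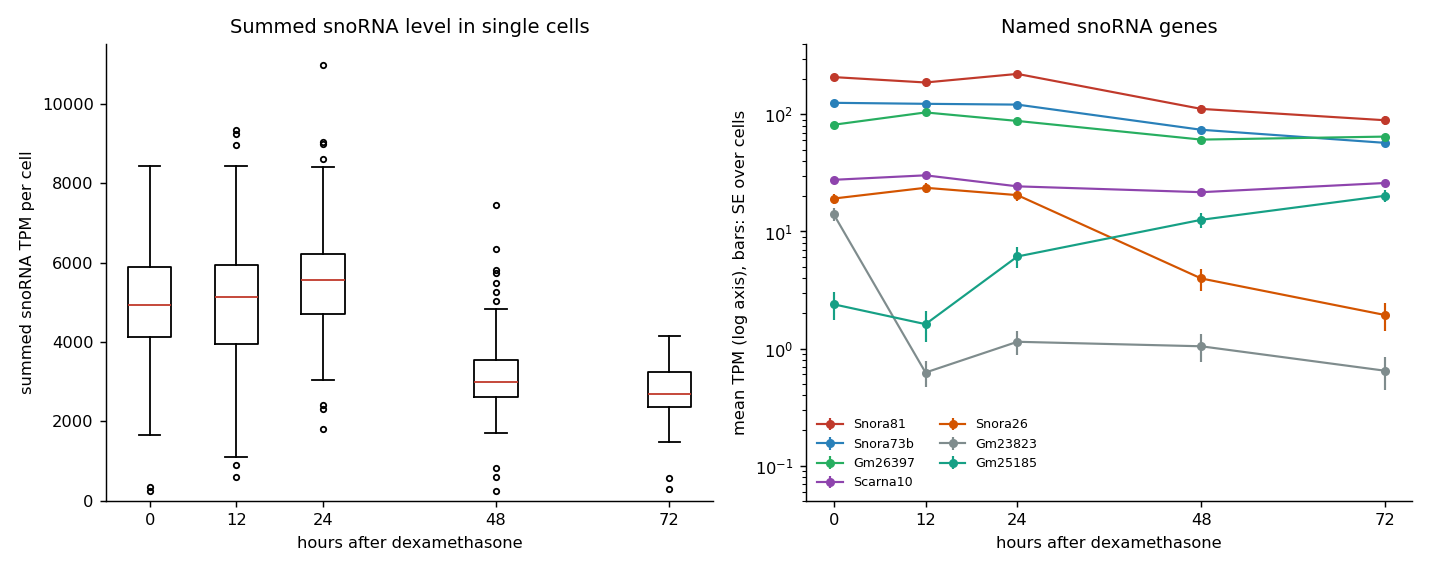
Left, box plots of the summed snoRNA TPM per cell at 0, 12, 24, 48 and 72 h of dexamethasone. Right, mean TPM with its standard error over cells for Snora81, Snora73b, Gm26397, Scarna10, Snora26, Gm23823 and Gm25185 on a log axis. Gm23823 drops from 14 to 0.62 TPM by 12 h, Snora26 drops after 24 h, and Gm25185 climbs to 20.2 TPM.

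The 4 mixed plates, each with ES and PrE cells, gave plate replicates for the change from ES to PrE, whose spread may be technical. Most snoRNAs that changed fell, and those of the H/ACA class fell without a called rise. In the wells of 2000 genes or more, the mean snoRNA sum was 6551 to 8253 TPM in ES and 3340 to 3616 TPM in PrE cells of a plate. By limma on log2(mean TPM + 1) over plates (n = 4 each), 159 of 410 tested snoRNA genes fell and 27 rose, against 25.3% and 34.5% of all genes. The median log2 change was -0.57 for snoRNA genes and 0.09 for all genes. Genes hardly detected in a cell type could pass the filter on low values only through the other type, which fixed their direction. Without the 22 wells the counts were 179 and 28 of 415, against 29.6% and 35.7% of all genes.

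Among H/ACA names, 28 of 38 fell and 0 rose, with a median of -1.25, against 25.3% and 34.5% of all genes. Without the 22 wells, 31 fell and 0 rose, against 29.6% and 35.7% of all genes. Snora20, in the chaperonin gene Tcp1, was at 21.8, 22.5, 35.5 and 26.5 TPM in ES cells of plates E1, E2, B1 and B2 and at 1.28, 0, 0.881 and 1.36 in PrE cells, a fall of 3.93 ± 0.28 on the log2 scale (adjusted p = 4.14e-06). Snora75 in the nucleolin gene Ncl fell by 3.07 ± 0.38, Snora31 in Tpt1 by 2.78 ± 0.32, and Snora26 in Dancr by 2.75 ± 0.18. Snora81 was at 862, 535, 948 and 678 TPM in ES and 429, 373, 501 and 390 in PrE cells, a fall of 0.81 ± 0.19 (adjusted p = 0.00501), not called on means of log2 values over cells (-0.58). In none of these genes did the plates of both cell types overlap. The C1 cells, 1 chip with no test, had Snora81 at 563 ± 246 TPM in 16 ES and 294 ± 218 in 39 PrE cells.

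Among C/D names, 25 of 70 fell and 2 rose, with a median of -0.53, against 25.3% and 34.5% of all genes. Without the 22 wells, 30 of 71 fell and 3 rose, against 29.6% and 35.7% of all genes. The rises were Snord118 (U8), at 3.97, 1.33, 3.36 and 3.46 TPM in ES and 7.28, 4.8, 7.04 and 4.60 in PrE cells, a rise of 0.82 ± 0.25 (adjusted p = 0.0216), and Snord16a in Rpl4 by 0.38 ± 0.11. The call of U8 was lost without plate B1 (0.79) and on means of log2 values over cells (0.27). In the time course U8 was not higher at the end, with 6.04 TPM at 0 h, 17.7 at 12 h and 4.46 at 72 h. Of the rRNA processing list, 1 of 14 rose and 7 fell, 4 of the latter being Rnu3b annotations that share reads. Snora73a was at 129, 124, 136 and 103 TPM in ES and 49.5, 55.5, 52.5 and 40.0 in PrE cells, a fall of 1.31 ± 0.13, and Snora73b at 233, 232, 254 and 218 against 114, 108, 122 and 106, a fall of 1.05 ± 0.08. The 4 tested Rnu3b annotations share 1 value, 2.56 to 3.16 TPM in ES and 0.603 to 2.17 in PrE cells, low in every plate. U13 and U22 were at 0.33 ± 0.40 and 0.04 ± 0.31 and not called. Snord64 and Snord107 of the imprinted list fell by 1.87 ± 0.44 and 0.83 ± 0.29 from ES means of 4.79 and 1.21 TPM. The call of Snord107 was lost with the plate as a block and without plate B2 (-0.88) or E1 (-0.73). Scarna10 was at 12.7, 11.3, 12.9 and 6.77 TPM in ES and 6.73, 11, 8.29 and 5.26 in PrE cells, which overlapped (-0.44 ± 0.24, adjusted p = 0.154).

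Of the 301 tested genes with other names, 106 fell and 25 rose, and 118 and 25 of 305 without the 22 wells. Over all genes, 25.3% fell and 34.5% rose, and 29.6% and 35.7% without the 22 wells. Gm25663 was at 74.3, 55.0, 70.7 and 62.4 TPM in ES and at 0.777, 0.586, 0 and 2.50 in PrE cells, a fall of 5.22 ± 0.33 (adjusted p = 1.83e-06). AF357399, in the ribosomal protein gene Rps16, fell by 4.77 ± 0.29 from 86.7 to 143 TPM in ES, and Gm24451 by 3.82 ± 0.21 from 134 to 168 TPM. Mir1949, a microRNA symbol that the models class as snoRNA, fell by 4.13 ± 0.16. Gm25569 was at 0 in ES cells of all 4 plates and at 3.81, 6.32, 4.99 and 5.53 TPM in PrE cells. Gm25185 was at 0, 0, 0.761 and 1.5 TPM in ES and 9.96, 14.7, 4.13 and 17 in PrE cells, a rise of 2.95 ± 0.44. Both also had higher means at 72 h than at 0 h in the time course. By box pattern, 84 of 192 tested genes with ACA alone fell and 14 rose, and of 81 with C and D boxes alone 31 fell and 1 rose. Without the 22 wells these were 92 and 14 of 194, and 39 and 2 of 83.

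Most snoRNA genes that fell and had a tested host had one that also fell. Of 159 that fell, 124 had a tested host, which was lower for 81, higher for 7 and not called for the others, and for 140 tested hosts without the 22 wells these were 111 and 10. Counting each host 1 time, 54 of 85 were lower and 7 higher, against 25.3% and 34.5% of all genes, and 67 and 9 of 93 without the 22 wells. Of the 12 genes that rose with a tested host, the host was higher for 7 and lower for 5. By place, 10 of 170 tested intronic genes rose and 70 fell, 2 and 61 of 125 that overlap an exon, and 15 and 28 of 115 outside any gene of their strand. Without the 22 wells these were 10 and 81 of 172, 3 and 66 of 126, and 15 and 32 of 117. Snora26 and Dancr fell together, by 2.75 and 3.09 ± 0.13, and Gm24907 rose by 2.46 ± 0.34 with its host Maged2 (2.09 ± 0.11). Rcc1, host of the U17 pair, was at -0.10 ± 0.08 (adjusted p = 0.283). Uchl5, host of Gm25663, was at -0.23 ± 0.12 (adjusted p = 0.136), and at -0.27 ± 0.10 (0.0442) without the 22 wells. The differences between snoRNAs and hosts were not tested.

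Hosts with several snoRNA genes varied in how many of them were called. All 4 tested snoRNA genes of Rpl13a fell, by 0.78 to 1.57 on the log2 scale, with a host change of -0.66 ± 0.12, and all 3 of the helicase gene Eif4a1 fell, by 0.97 to 2.62, with the host at -0.16 ± 0.13 (adjusted p = 0.345). Of 9 genes in Gas5, an lncRNA gene with C/D snoRNAs in its introns, 3 fell while Gas5 fell by 1.27 ± 0.16. None of 5 genes in Snhg1 was called, at -0.81 to 0.09, while Snhg1 fell by 1.67 ± 0.48 (1.08 ± 0.09 without the 22 wells). Of 9 genes in the imprinted host Rian, 6 fell, and Rian was at -0.65 ± 0.57 and not called. Nop56, host of Gm24451, was at 0.04 ± 0.69, and at -0.76 ± 0.08 (adjusted p = 2.26e-05) without the 22 wells.

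**Figure D4:**
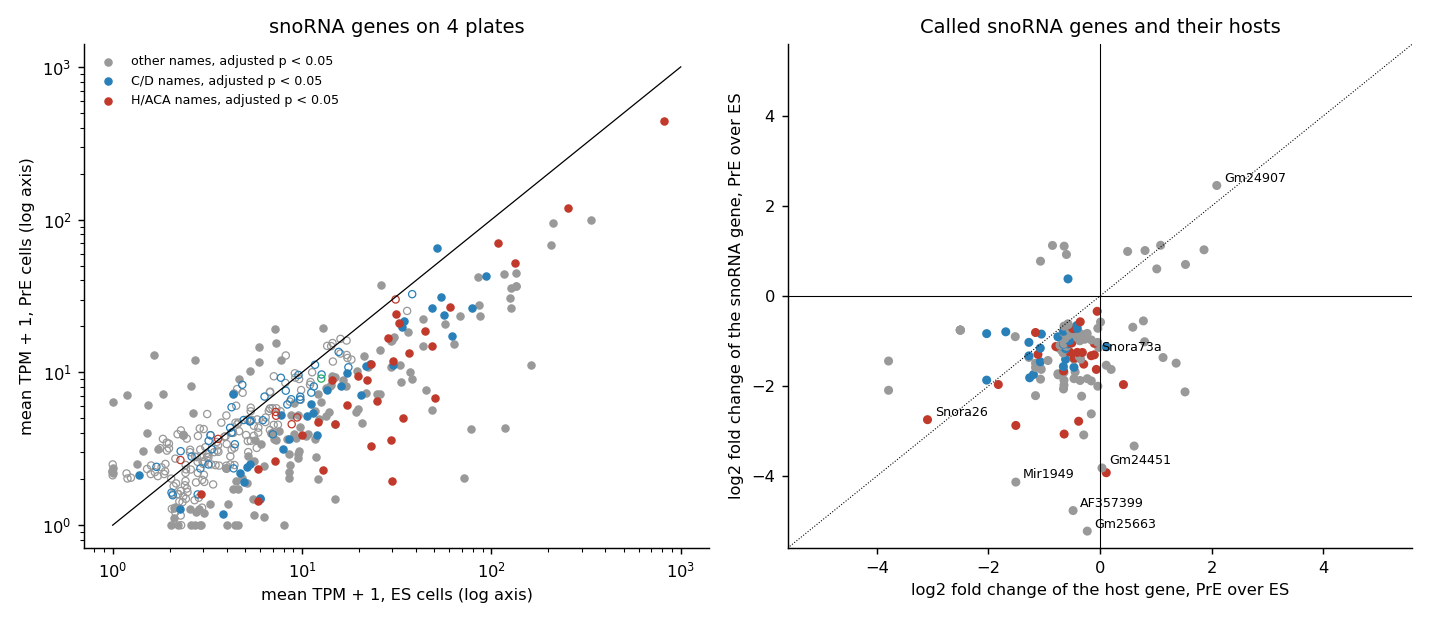
Left, mean TPM + 1 of each tested snoRNA gene in ES and PrE cells over the 4 plates, wells of 2000 genes or more, log axes, with filled points for an adjusted p under 0.05. Right, log2 change of each called snoRNA gene against that of its host over all wells, with a dotted line at equal change. More filled points lie below the diagonal than above it, as in the counts of 179 that fell and 28 that rose.

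Of 25 tested genes for snoRNP proteins and snoRNA maturation, 10 fell and 2 rose, beside 25.3% and 34.5% of all genes, and 15 fell and 2 rose without the 22 wells, beside 29.6% and 35.7%. Dkc1, the pseudouridine synthase of H/ACA particles, fell by 2.47 ± 0.14 (adjusted p = 8.71e-07), and was at 165, 125 and 36.5 TPM at 0, 24 and 72 h of the time course. Its particle partners Nhp2 (-0.40 ± 0.13, adjusted p = 0.0258), Nop10 (-0.30 ± 0.13, adjusted p = 0.0728) and Gar1 (0.30 ± 0.18, adjusted p = 0.181) had smaller changes. Of the C/D particle, Nop58 fell by 0.75 ± 0.13, and the methyltransferase gene Fbl was at 0.68 ± 0.77 in all wells and -0.19 ± 0.09 (adjusted p = 0.0882) without the 22. Dbr1, which debranches intron lariats, fell by 0.73 ± 0.11. The rises were Parn by 0.52 ± 0.11 and Papd5 by 0.35 ± 0.10, an exonuclease and a terminal nucleotidyltransferase that act on snoRNA 3′ ends.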

How the data were processed

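Expression was measured in the purified-RNA libraries as estimated counts and in cells as TPM, both per transcript and summed here per gene. Per the study's methods, the authors trimmed reads with fastq-mcf and made the deposited estimated counts and TPM with Sailfish in unstranded mode on GENCODE vM9 transcripts. Gene types, positions and hosts came from their models, GENCODE vM9 merged with transcripts from HISAT2 2.0.1 and Cufflinks 2.2.1 on mm10. TPM are scaled to a fixed total per sample, which hides depth, and short transcripts get small effective lengths.

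Estimated counts were rounded and tested with edgeR 4.0.16 (filterByExpr, TMM, quasi-likelihood). Plates were tested with limma 3.58.1 on log2(mean TPM + 1), over genes at a mean of at least 1 TPM in either cell type. Adjusted p-values are Benjamini-Hochberg over all genes tested, called at 0.05. Shares have exact 95% binomial intervals, and a count of 0 allows 3 counts. DESeq2 1.42.0, library size scaling, no filter on low values, a pseudocount of 0.1, leaving out libraries and blocks were alternatives, and leaving out wells under 2000 genes was chosen after seeing the data. The scripts were tested on simulated data. The members and lists were chosen with earlier results of these data known. Genes were named by rule: the 12 highest in rdRNA-seq of 1 µg, the 3 largest called changes per direction and test with a higher group averaging 20 counts (plates, 5 TPM) or more, the 5 highest over time with the 3 largest rises and falls among genes in at least 10% of cells, list members, and hosts. Genes named beside these, such as Gm24451, Gm25636, Snora20 and Snora16a, were chosen after their values were seen. The plate labels mark a shared batch for ES and PrE cells (correlation of deviations 0.03 to 0.08, and 0.07 to 0.13 without wells under 2000 genes), and the fit with the plate as a block called 168 snoRNA genes lower and 27 higher. 8 columns of the merged-model table that matched no sample were not used, nor was the table of the same 10 pg libraries at another depth. PrE bulk libraries were not analysed here.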

Additional observations from a re-analysis of the deposited data

Results flagged for a closer look

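Of 101 groups of 4 to 10 values looked at, 4 held a value far from the others, and chance gives about 1 in 20 groups. Summed snoRNA TPM in ES cells of plate B1 was 15726, against 6122 to 7725 on the other plates. A well with 29 detected genes gave Gm24507 a TPM of 474730 there (next highest cell 85.8), and without wells under 2000 genes the sum was 8253 and the mean of Gm24507 went from 8199 to 14.9 TPM. Gm26447 was at 158 TPM in ES cells of plate B1 and at 111 to 116 on the others. Snord13 was at 13 TPM in PrE cells of plate B1 and at 6.02 to 6.31 on the others. Snora65 was at 64.8 TPM in 1 lysate well and at 0.998 to 31.3 in the other 8.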

How the results depend on the processing

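Over the 95 calls of named snoRNA genes, 934 values under alternatives held 853 on the same side of the threshold, 81 that lost the call and 0 of opposite direction. Counts of called snoRNA genes went, for RamDA over SMART, from 4 to 0 with no filter and 0 to 4 with a library left out. For C1-RamDA over SMART they went from 10 to 18 with DESeq2, 17 with no filter and 9 to 18 with a library left out. For RamDA over C1-RamDA they went from 4 to 8 with DESeq2 (1 higher, 7 lower), 8 on library size, 2 with no filter and 1 to 2 with a library left out. RamDA over rdRNA-seq at 1 ng went from 40 to 62 with no filter and 32 to 40 with a library left out. For rdRNA-seq of 1 over 10 ng the count went from 0 to 1 with DESeq2, 14 with no filter and 0 to 1 with a library left out. Without a library, rdRNA-seq over paRNA-seq gave 124 to 130, and without a plate PrE over ES gave 165 to 176. Fewer libraries or more genes entered the fits without a library or a filter. For the changes with DESeq2 and on library size the cause was not tested. On library size alone the share of calls that were higher moved from 47.8 to 15.4% for rdRNA-seq over paRNA-seq (median shift -0.31) and from 48.0 to 60.8% for RamDA over rdRNA-seq (0.11).

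Replicate numbers of the RNA libraries did not pair them (correlations of deviations -0.04 to 0.05). The replicate block gave 0 calls in the 3 comparisons at 10 pg and 2 for rdRNA-seq of 1 over 10 ng. On plates the block changed the total of called genes by less than 1.5 times.

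Genes per library at a minimum of 5 and 20 counts in place of 10 were 167 and 104 in rdRNA-seq of 1 µg, 36.7 and 3.33 in paRNA-seq, 107 and 37 in rdRNA-seq of 10 ng, 110 and 31 at 1 ng, 98.7 and 18.7 in RamDA of 1 ng, 40.3 and 6.00 at 10 pg, 81.3 and 18 in C1-RamDA, and 31.3 and 7.25 in SMART. On full plates a minimum of 5 counts left 6.61 genes a well in RamDA, 8.66 in C1-RamDA and 4.64 in C1-SMART, so most detections there rest on few counts. On merged gene models the snoRNA sum was 3378 TPM at 0 h and 2096 at 72 h.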
